A study of Caenorhabditis elegans with 15 samples.

Results

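The genes described here are 9 members of the insulin and DAF-16 pathway of the nematode Caenorhabditis elegans: daf-2, age-1, pdk-1, akt-1, akt-2, sgk-1, daf-16, daf-18 and dod-3. They were chosen by name, with earlier results of these data known. Every probe set that the array annotation assigned to 1 of these symbols was taken. This gave 23 probe sets of the 22548 on the array that are not controls, and 9 of 17118 annotated genes. The number of probe sets was 5 for pdk-1, 4 each for daf-2 and daf-16, 2 each for age-1, akt-1, akt-2 and daf-18, and 1 each for sgk-1 and dod-3. The genes lie on chromosomes III (daf-2, Y55D5A.5), II (age-1, B0334.8), X (pdk-1, H42K12.1), V (akt-1, C12D8.10), X (akt-2, F28H6.1), X (sgk-1, W10G6.2), I (daf-16, R13H8.1), IV (daf-18, T07A9.6) and V (dod-3, C24B9.9).

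As background, insulin-like peptides bind the receptor DAF-2, which activates the phosphatidylinositol 3-kinase AGE-1. The lipid phosphatase DAF-18 opposes AGE-1. The lipid product recruits the kinase PDK-1, which activates AKT-1, AKT-2 and SGK-1. AKT kinases phosphorylate the forkhead transcription factor DAF-16 and keep it out of the nucleus. When signalling is low, DAF-16 enters the nucleus and changes the expression of stress, metabolic and immune genes, and it is needed for the arrest of first-stage larvae that hatch without food. The dod genes were named for lying downstream of daf-16. Arrays measure RNA, so neither kinase activity nor the location of DAF-16 was read out here.

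RNA was compared between 5 strains of whole larvae labelled L1-L2, which had hatched without food and were then fed the bacterial strain OP50 for 6 to 7 hours. The control was the wild type Bristol N2 (3 biological samples). The mutants were VC446, alg-1(gk214) X, in a microRNA Argonaute (3 samples), RB774, zfp-1(ok554) III, in a zinc-finger chromatin protein (2 samples), and BB11, rde-4(ne299) III, in a double-stranded RNA binding protein that works with Dicer (3 samples). The fifth strain, MT3033, carried lin-35(n745) and unc-13(e1091) on chromosome I (2 samples). lin-35 encodes the worm retinoblastoma protein and unc-13 a synaptic vesicle priming protein, and the effects of these mutations cannot be told apart. Each mutation was carried by 1 line, so other differences between the lines travel with the named allele.

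Values are log2 probe-set values on the scale of the authors' GCRMA processing, with arrays of the same biological sample averaged, and a value under 5 is called dim. Changes are log2 differences from limma, ± its standard error (SE), and a gene passed at a Benjamini-Hochberg adjusted p under 0.05 over the 8653 genes tested. The 4 comparisons with wild type share the same 3 control samples. Where groups are said not to overlap, this only describes the samples, because the share of all genes without overlap was not counted.

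Wild-type replicates 1 and 2 stood apart from the mutants, at 46.1 and 49.3 on the second principal component, against 13.6 for wild-type replicate 3 and -30.9 to 21.9 for the mutants. Replicates 1 and 3 of alg-1 differed across genes with an SD of 0.27, and the 2 pairs of arrays hybridised with the same sample differed by 0.22 and 0.36. The 3′ minus 5′ difference of the actin control probe sets was 1.94 to 2.96 in rde-4, 1.25 to 2.22 in wild type and 0.81 to 1.62 in the other strains. A larger difference is a sign of less intact RNA. As a check of strains, rde-4 RNA fell by 2.97 in the rde-4 strain (limma adjusted p = 6.1e-06) and lin-35 RNA fell by 1.61 in its strain (limma adjusted p = 0.00149). The changes of alg-1, zfp-1 and unc-13 in their own strains were -1.44, 0.01 and -0.14 and did not pass. The 5 vitellogenin genes measured, markers of adults, averaged 2.85 to 3.36 over all samples and 0 of the 5 reached 5 throughout any group.

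Of the 9 genes, 8 were bright enough to test, and 2 of them, pdk-1 and dod-3, differed among the strains in limma's F test (adjusted p = 0.00675 and 0.00037). That is 25% of the members tested, against 14.2% of all genes tested. As the members were chosen with earlier results of these data known, these shares do not measure an excess. The kinase gene pdk-1 rose 4.94-fold in zfp-1 and 2.86-fold in rde-4, whereas dod-3 fell by 2.37 in zfp-1, by 2.63 in rde-4 and by 1.29 in lin-35 unc-13 on the log2 scale. The other 6 tested members, age-1, daf-18, akt-1, akt-2, sgk-1 and daf-16, passed in 0 of the 4 comparisons with wild type by limma. In zfp-1, 1 member rose and 1 fell, against 4.2% of all genes called, and the same count held in rde-4, where 11.1% of all genes were called. In lin-35 unc-13, 0 members rose and 1 fell, with 6.66% of all genes called. In alg-1, 0 members passed by limma, with 3.13% of all genes called. There 2 members (pdk-1 and dod-3) had an unadjusted p under 0.05, as did 18.3% of all genes tested. The median change over the 8 members was -0.19 in alg-1, -0.16 in zfp-1, -0.02 in rde-4 and 0.20 in lin-35 unc-13, and the median over all genes tested was 0.02, -0.01, 0.04 and 0.01.

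**Figure D1:**
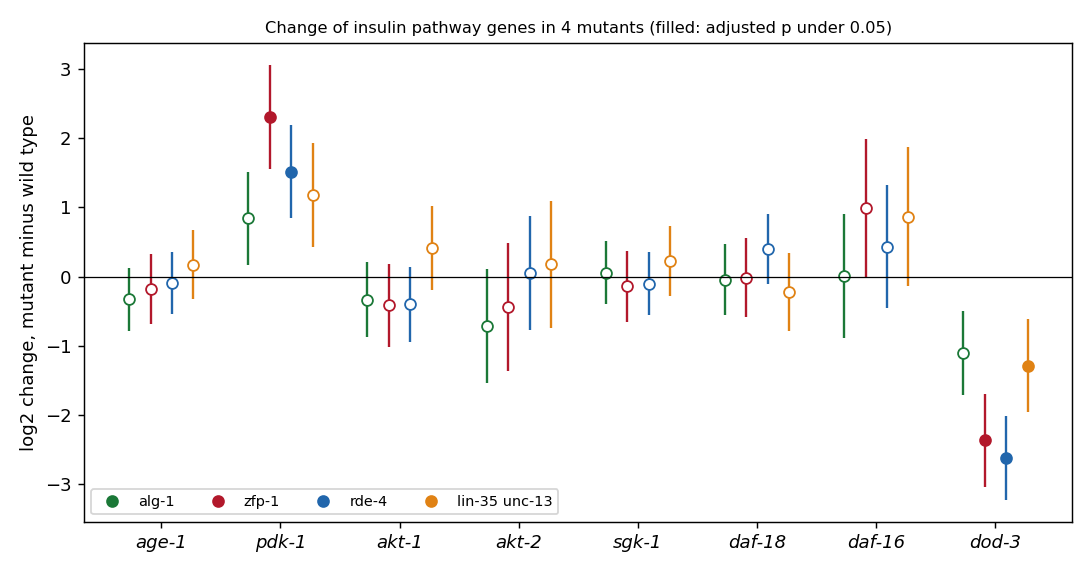
Log2 change against wild type (y axis, limma) of the 8 members tested (x axis), with 95% confidence intervals as bars, coloured by mutant; filled points passed at an adjusted p under 0.05. The filled points are pdk-1 on the higher side in zfp-1 and rde-4, and dod-3 on the lower side in zfp-1, rde-4 and lin-35 unc-13.

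At the top of the pathway, the receptor gene daf-2 was dim on all 4 of its probe sets in every sample. The brightest, 177008_s_at, lay between 2.72 and 2.91, and the dimmest, 176990_s_at, between 1.91 and 1.97. No level of daf-2 can be read from such values, and it was not tested. Of 40 insulin-like genes listed as its possible ligands, 24 had a probe set and 7 were bright enough to test. One ligand gene of the 7 passed, ins-17, in rde-4, where 11.1% of all genes were called. Its values were 9.91, 10.11 and 9.29 in wild type and 7.72, 8.53 and 8.19 in rde-4, with every rde-4 sample below every wild-type sample. It fell by 1.63 ± 0.32 (limma adjusted p = 0.0128), and it no longer passed without wild-type replicate 1 (adjusted p = 0.0537) or replicate 2 (0.0566). In alg-1, zfp-1 and lin-35 unc-13, 0 of the 7 ligands passed by limma, with 3, 0 and 1 at an unadjusted p under 0.05. Over all genes tested, 18.3% in alg-1, 22% in zfp-1, 29.3% in rde-4 and 20.4% in lin-35 unc-13 had an unadjusted p under 0.05. The median change of the 7 ligand genes was 0.16 in alg-1, -0.42 in zfp-1, -0.47 in rde-4 and -0.49 in lin-35 unc-13.

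The genes for the enzymes that make and remove the lipid signal gave 0 calls against wild type by limma. For age-1, the kinase gene, probe set 193074_s_at read 8.19, 8.29 and 8.77 in wild type, and the group means of the mutants ran from 8.09 ± 0.21 (SD, n = 3) in alg-1 to 8.59 ± 0.10 (SD, n = 2) in lin-35 unc-13. Its changes were -0.33, -0.18, -0.10 and 0.17 in alg-1, zfp-1, rde-4 and lin-35 unc-13. Every mutant group overlapped the range of wild type. For daf-18, the phosphatase gene, probe set 174631_at read 9.16, 9.46 and 9.84 in wild type and 10.13, 9.76 and 9.76 in rde-4, which had the highest group mean, 9.88 ± 0.21 (SD, n = 3). The change in rde-4 was 0.40 and did not pass. The second daf-18 probe set, 188215_at, ranked the samples differently, with a Pearson r of 0.06 to the first over the 13 samples, so the order of strains for daf-18 depends on the probe set. Of 10 genes listed as upstream or adaptor components, such as the adaptor aap-1, 7 were tested and 0 passed in any mutant by limma, with 1, 0, 2 and 0 at an unadjusted p under 0.05 in alg-1, zfp-1, rde-4 and lin-35 unc-13.

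The gene for the kinase PDK-1, which links the lipid signal to the AKT kinases, was the member that rose. Its brightest probe set, 175826_s_at, read 7.80, 7.59 and 7.74 in wild type, 10.17 and 9.86 in zfp-1, and 9.38, 8.93 and 9.37 in rde-4. It read 9.17 and 8.59 in lin-35 unc-13 and 8.88, 7.76 and 9.02 in alg-1. Every zfp-1, rde-4 and lin-35 unc-13 sample lay above every wild-type sample, while alg-1 replicate 2 fell within the wild-type range. The group means were 7.71 ± 0.11 (SD, n = 3) in wild type, 8.55 ± 0.69 in alg-1 (n = 3), 10.01 ± 0.22 in zfp-1 (n = 2), 9.22 ± 0.26 in rde-4 (n = 3) and 8.88 ± 0.41 in lin-35 unc-13 (n = 2).

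The rise of pdk-1 was 2.31 ± 0.34 in zfp-1 (95% interval 1.55 to 3.06, limma adjusted p = 0.00515) and 1.52 ± 0.31 in rde-4 (0.84 to 2.19, adjusted p = 0.0144). In lin-35 unc-13 the change was 1.17 ± 0.34 (0.42 to 1.93, limma adjusted p = 0.0691) and in alg-1 it was 0.85 ± 0.31 (0.17 to 1.52, adjusted p = 0.173), and neither passed. Both passed once alg-1 replicate 2 was left out, with changes of 1.17 (limma adjusted p = 0.00928) and 1.24 (adjusted p = 0.018). The call in zfp-1 was lost without zfp-1 replicate 1 (2.15, limma adjusted p = 0.081) and the call in rde-4 without wild-type replicate 2 (1.46, adjusted p = 0.0572). Against wild-type replicate 3 alone, whose spread is then borrowed from the other groups, the changes were 2.27 and 1.48 and neither passed (limma adjusted p = 0.145 and 0.353).

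The order of pdk-1 from high to low was zfp-1, rde-4, lin-35 unc-13, alg-1 and wild type, and no neighbours in this order differed past the threshold. The direct difference of zfp-1 over alg-1 was 1.46 (95% interval 0.71 to 2.21, limma adjusted p = 0.0911), in a comparison that called 0.705% of all genes. The difference of rde-4 from zfp-1 was -0.79 (adjusted p = 0.416 by limma, with 1.36% of all genes called), and that of lin-35 unc-13 from zfp-1 was -1.13 (adjusted p = 0.118, with 6.28% of all genes called). Both zfp-1 samples were higher than every sample of the other 4 strains.

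**Figure D2:**
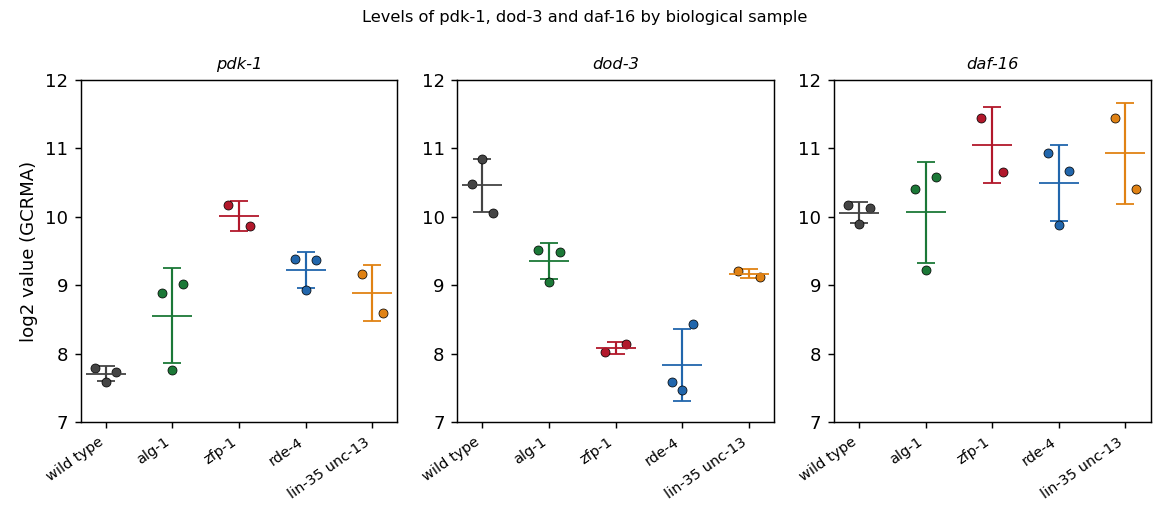
Log2 values of pdk-1, dod-3 and daf-16 (y axis, brightest probe set of each) in the 13 biological samples, by strain; points are samples, horizontal bars are group means and error bars are SD. The zfp-1 samples of pdk-1 sit at 9.86 and 10.17 above the 3 wild-type samples at 7.59 to 7.80, dod-3 runs from 10.06 to 10.84 in wild type down to 7.47 to 8.44 in rde-4, and daf-16 overlaps between most strains.

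A second, dimmer pdk-1 probe set also rose in zfp-1 and rde-4. Probe set 175950_s_at read 5.72, 3.28 and 4.59 in wild type, so that 2 of the 3 wild-type samples were dim. It read 8.27 and 8.62 in zfp-1, 7.64, 6.47 and 7.55 in rde-4, 8.14 and 6.66 in lin-35 unc-13, and 6.95, 4.70 and 6.50 in alg-1. Fitted with all 11049 probe sets tested, it rose by 3.91 ± 0.77 in zfp-1 (limma adjusted p = 0.0198) and by 2.69 ± 0.69 in rde-4 (adjusted p = 0.0344), with 2.86 ± 0.77 in lin-35 unc-13 (adjusted p = 0.0517). With dim values raised to 5, the differences from wild type were 3.21 in zfp-1, 1.98 in rde-4 and 2.16 in lin-35 unc-13, so the fitted sizes rest in part on dim wild-type values. Its Pearson r to the brightest pdk-1 probe set was 0.93 over the 13 samples. The third, 191385_s_at, was dim in 12 of 13 samples and read 5.91 in zfp-1 replicate 2, and the remaining pair, 185997_s_at and 185996_at, were dim throughout. Which transcripts of pdk-1 each probe set reads is not given in the annotation used here.

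**Figure D3:**
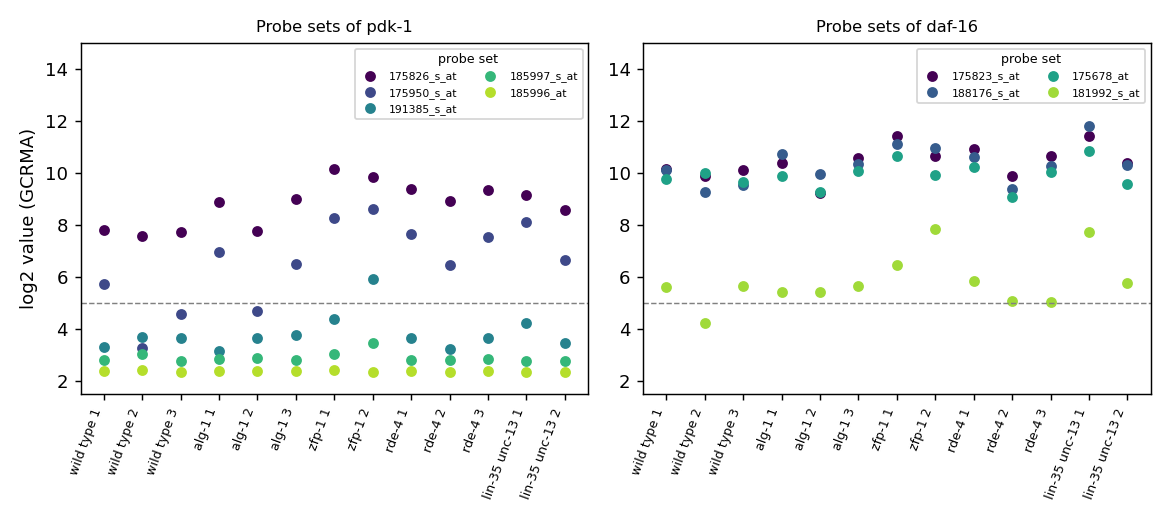
Log2 values (y axis) of every pdk-1 probe set and every daf-16 probe set in the 13 biological samples (x axis, grouped by strain), with a dashed line at 5, under which a value is called dim. The 2 brighter pdk-1 probe sets are highest in the zfp-1 samples, and the lowest daf-16 probe set, 181992_s_at, runs from 4.23 in wild-type replicate 2 to 7.84 in zfp-1 replicate 2.

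The kinase genes downstream of pdk-1 gave 0 calls against wild type by limma. For akt-1, probe set 175808_s_at read 9.98, 10.00 and 9.30 in wild type and 10.34 and 10.00 in lin-35 unc-13, and the samples of alg-1, zfp-1 and rde-4 lay between 9.06 and 9.71. The changes were -0.33, -0.42, -0.40 and 0.41 in alg-1, zfp-1, rde-4 and lin-35 unc-13. Both lin-35 unc-13 samples of akt-1 lay above every sample of the other 3 mutants. The direct differences were 0.74, 0.83 and 0.81 against alg-1, zfp-1 and rde-4, and none passed (limma adjusted p = 0.151, 0.162 and 0.0856). These last 3 comparisons called 6.95%, 6.28% and 11.4% of all genes.

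For akt-2, the sister of akt-1, probe set 175809_at read 9.20, 9.16 and 8.52 in wild type and 8.29, 7.37 and 9.08 in alg-1, where the spread was widest (SD 0.85, n = 3). Its change in alg-1, -0.71 ± 0.38, did not pass (limma adjusted p = 0.348), and it was -0.27 without alg-1 replicate 2. For sgk-1, the third kinase of this tier, all 13 samples lay between 7.36 and 8.27. Its changes were 0.06, -0.14, -0.11 and 0.23 in alg-1, zfp-1, rde-4 and lin-35 unc-13. The second probe sets of akt-1 and akt-2 followed the first with a Pearson r of 0.77 and 0.61 over the 13 samples, and that of age-1 with 0.65.

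The transcription factor gene daf-16 was among the brighter members, and in the fit without a replicate block its changes did not pass in any mutant. Probe set 175823_s_at read 10.17, 9.89 and 10.12 in wild type, 11.44 and 10.66 in zfp-1, and 11.45 and 10.41 in lin-35 unc-13. It read 10.40, 9.22 and 10.58 in alg-1 and 10.94, 9.88 and 10.67 in rde-4. All samples of zfp-1 and lin-35 unc-13 lay above all wild-type samples, whereas alg-1 and rde-4 overlapped wild type. The groups without overlap were those of 2 samples, which clear a range more easily than groups of 3. The change was 0.99 ± 0.46 in zfp-1 (95% interval -0.01 to 1.99, limma adjusted p = 0.232) and 0.87 ± 0.46 in lin-35 unc-13 (adjusted p = 0.322). It was 0.43 ± 0.41 in rde-4 and 0.01 ± 0.41 in alg-1. Without zfp-1 replicate 1 the zfp-1 change was 0.60, and without lin-35 unc-13 replicate 1 the lin-35 unc-13 change was 0.35. The other 3 daf-16 probe sets did not pass either. Of these, 188176_s_at gave values of 1.41 in zfp-1 and 1.41 in lin-35 unc-13 (limma adjusted p = 0.108 and 0.111), and 181992_s_at 1.99 and 1.59 (adjusted p = 0.0894 and 0.165).

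Within strains, pdk-1 and daf-16 deviated from their group means together. For both genes, every replicate 1 lay above its group mean and every replicate 2 below it, so the deviations also went with replicate number. The lowest deviations were those of alg-1 replicate 2, at -0.80 for pdk-1 and -0.84 for daf-16, and rde-4 replicate 2, at -0.30 and -0.62. The second replicate of lin-35 unc-13 was at -0.29 and -0.52, that of zfp-1 at -0.16 and -0.39, and that of wild type at -0.12 and -0.17. As a description, the Pearson r of these deviations was 0.94 over the 13 samples, 0.98 over 12 without alg-1 replicate 2, and 0.97 over 11 without rde-4 replicate 2 as well. Being taken from strain means, the 13 points are not independent, and the 2 samples of zfp-1, like those of lin-35 unc-13, mirror each other. Among the other genes tested, 0.185% followed pdk-1 with an r at least as high. The deviations of pdk-1 followed those of the actin 3′ control probe set with an r of 0.96, or 0.91 in each of the smaller sets, and the points share libraries and array processing. For daf-16 the r to actin 3′ was 0.93, and 0.89 and 0.84 in the smaller sets. The r to actin 3′ was 0.58 for dod-3 and -0.31 to 0.46 for age-1, akt-1, akt-2, sgk-1 and daf-18. No r to the other control probe sets is given, and they need not follow actin 3′. In alg-1, actin 3′ read 15.52, 14.79 and 15.54, while the Gapdh 3′ control read 13.37, 13.41 and 13.35. In rde-4 both were lowest in replicate 2, with Gapdh 3′ at 13.24, 12.51 and 13.50. The mean actin 3′ level was 15.38 ± 0.06 (SD, n = 3) in wild type, 15.28 ± 0.43 in alg-1 (n = 3), 15.59 ± 0.08 in zfp-1 (n = 2), 15.27 ± 0.31 in rde-4 (n = 3) and 15.38 ± 0.28 in lin-35 unc-13 (n = 2). The part of what pdk-1 and daf-16 share with the actin control in their changes was not tested.

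**Figure D4:**
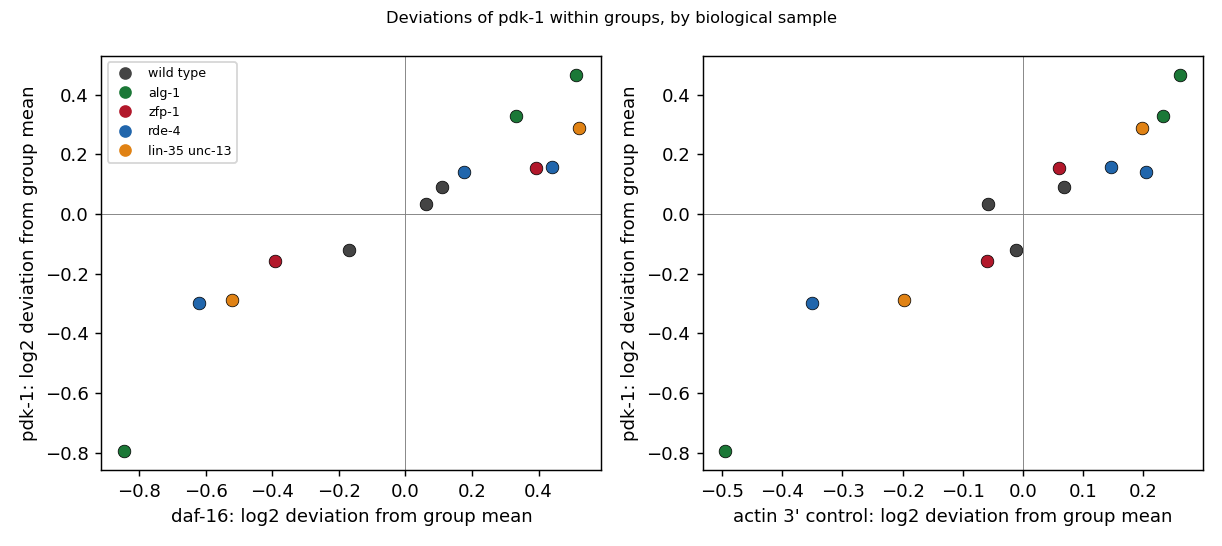
Deviation of pdk-1 from its strain mean (y axis, log2) against the deviation of daf-16 and of the actin 3′ control probe set (x axes, log2) in the 13 biological samples, coloured by strain. The points lie along a rising line in both panels (Pearson r 0.94 and 0.96), with alg-1 replicate 2 lowest at -0.80 for pdk-1 and -0.84 for daf-16.

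The downstream gene dod-3, one of the genes that active DAF-16 raises in adults, was the member that fell. Its single probe set, 173335_s_at, read 10.47, 10.84 and 10.06 in wild type, 8.02 and 8.15 in zfp-1, and 7.58, 7.47 and 8.44 in rde-4. It read 9.21 and 9.12 in lin-35 unc-13 and 9.52, 9.04 and 9.49 in alg-1. Every mutant sample lay below every wild-type sample. The group means were 10.46 ± 0.39 (SD, n = 3) in wild type, 9.35 ± 0.27 in alg-1 (n = 3), 8.08 ± 0.09 in zfp-1 (n = 2), 7.83 ± 0.53 in rde-4 (n = 3) and 9.17 ± 0.06 in lin-35 unc-13 (n = 2).

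In rde-4, dod-3 fell by 2.63 ± 0.28 (95% interval -3.23 to -2.02, limma adjusted p = 0.000332), or 6.18-fold. In zfp-1 it fell by 2.37 ± 0.31 (-3.05 to -1.69, limma adjusted p = 0.00233), or 5.18-fold, and in lin-35 unc-13 by 1.29 ± 0.31 (-1.97 to -0.61, adjusted p = 0.0272). The change in alg-1, -1.11 ± 0.28 (-1.71 to -0.50), did not pass (limma adjusted p = 0.0564). It passed without wild-type replicate 3 (-1.31, limma adjusted p = 0.0312), without rde-4 replicate 2 (adjusted p = 0.0467) and without rde-4 replicate 3 (adjusted p = 0.0245). The call in rde-4 held in all 26 alternatives run, whereas that in lin-35 unc-13 was lost without wild-type replicate 1 or 2 (limma adjusted p = 0.0627 and 0.105) and without either of its own replicates (0.145 and 0.162). Against wild-type replicate 3 alone, zfp-1 and lin-35 unc-13 no longer passed (-1.97 and -0.89, limma adjusted p = 0.121 and 0.443).

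From high to low, the order of dod-3 was wild type, alg-1, lin-35 unc-13, zfp-1 and rde-4, and no neighbours in this order differed past the threshold. Of the direct comparisons, 2 passed. The level in rde-4 was below that in alg-1 by a difference of -1.52 ± 0.28 (limma adjusted p = 0.022, with 1.02% of all genes called). The level in lin-35 unc-13 was above that in rde-4 by 1.34 ± 0.31 (limma adjusted p = 0.0164, with 11.4% of all genes called). The first was lost with alg-1 replicates 1 and 3 taken as 1 sample (-1.44, limma adjusted p = 0.107) and without alg-1 replicate 1 or 3 or rde-4 replicate 1 or 2 (0.0882 to 0.104). The second was lost without rde-4 replicate 1 or either lin-35 unc-13 replicate (limma adjusted p = 0.054, 0.142 and 0.063). The difference of zfp-1 from alg-1 was -1.27 and did not pass (limma adjusted p = 0.102).

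Of 9 intestinal marker genes, 2 fell in alg-1, zfp-1 and rde-4, against 3.13%, 4.2% and 11.1% of all genes called. All 9 intestinal marker genes measured reached 5 in every sample, and their mean level was 10.962 to 10.998 in wild type, 10.63 to 10.77 in alg-1, 10.39 to 10.40 in zfp-1, 9.93 to 10.56 in rde-4 and 10.85 to 11.04 in lin-35 unc-13. These 2 were the gut protease gene cpr-6 and the gut esterase gene ges-1, which changed by -3.79 and -1.74 in zfp-1, and 0 of the 9 passed in lin-35 unc-13 by limma, with 3 at an unadjusted p under 0.05. Other intestinal markers were higher without passing, as the actin gene act-5 (0.83 in alg-1 and 0.82 in zfp-1) and the proton pump subunit gene vha-6 (0.68 in zfp-1 and 0.32 in rde-4). Of 10 neuronal markers, the neuropeptide processing gene egl-21 and the dense-core vesicle gene ida-1 fell in rde-4, where the list averaged 10.87 to 11.07 against 11.17 to 11.23 in wild type and 11.1% of all genes were called. The kinesin gene unc-104 (0.66), rab-3 (0.35) and unc-119 (0.23) of the same list were higher in rde-4 without passing. Of 5 body wall muscle markers 0 passed in any mutant by limma, nor at an unadjusted p under 0.05. In whole larvae, fewer cells of a type and less RNA per cell cannot be told apart, and the part of the intestine in the level of dod-3 was not tested. The part of the 3′ to 5′ difference of the rde-4 samples was not tested either.

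Of 27 genes listed as partners or regulators of DAF-16, 20 were tested and 1 passed, in rde-4, where 11.1% of all genes were called. This was pqm-1, a zinc-finger transcription factor gene whose protein leaves the nucleus when DAF-16 enters it. It read 11.56, 11.18 and 11.04 in wild type and 10.57, 9.60 and 10.10 in rde-4, without overlap. It fell by 1.17 ± 0.23 in rde-4 (limma adjusted p = 0.0141), and the call was lost without wild-type replicate 1 (adjusted p = 0.0597). In alg-1, zfp-1 and lin-35 unc-13, 0 of the 20 passed by limma, with 2, 3 and 2 at an unadjusted p under 0.05. The median change of the 20 was -0.03, 0.27, -0.01 and 0.06 in alg-1, zfp-1, rde-4 and lin-35 unc-13.

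The dod genes changed in both directions. Of 10 listed, 8 were tested, dod-3 included: 1 rose in alg-1, 1 rose and 1 fell in zfp-1, 2 fell in rde-4, and 1 fell in lin-35 unc-13. The shares of all genes called were 3.13%, 4.2%, 11.1% and 6.66%. The medians were 0.41, -0.12, -0.17 and 0.62 in these strains. The gene dod-22, one of those that active DAF-16 lowers in adults, read 5.58, 5.17 and 6.05 in wild type, 9.13 and 9.58 in zfp-1, 7.39, 7.85 and 7.82 in alg-1, and 4.09, 4.89 and 5.72 in rde-4. All zfp-1 and alg-1 samples were above all wild-type samples, and 2 of the 3 rde-4 samples were dim. It rose by 3.76 ± 0.49 in zfp-1 (limma adjusted p = 0.00231) and by 2.08 ± 0.44 in alg-1 (adjusted p = 0.0292), and its level in rde-4 was below that in zfp-1 by a direct difference of -4.45 ± 0.49 (adjusted p = 0.000696). The alg-1 call was lost without wild-type replicate 1 or 2 or any 1 alg-1 replicate (limma adjusted p = 0.0543 to 0.116). The gene dod-20 read 8.76, 8.55 and 8.70 in wild type and 6.67, 4.72 and 6.31 in rde-4, falling by 2.77 ± 0.46 there (limma adjusted p = 0.00637), and it was 4.04 higher in lin-35 unc-13 than in rde-4 (adjusted p = 0.000282).

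Of 17 genes listed as DAF-16 targets, 9 were tested, and none passed in all 4 mutants. The counts were 0 higher and 2 lower in alg-1, 0 and 3 in zfp-1, 0 and 2 in rde-4, and 1 and 0 in lin-35 unc-13. The 1 in lin-35 unc-13 was sod-3, which entered the test only through that group and is given as a description. The shares of all genes called were 3.13%, 4.2%, 11.1% and 6.66% in these strains, and the medians of the 9 genes were -0.67, -1.23, -1.04 and -0.38. The glyoxylate cycle gene icl-1 averaged 12.77 ± 0.22 in wild type (SD, n = 3). It fell by 2.76 ± 0.42 in alg-1, by 2.67 ± 0.47 in zfp-1 and by 3.05 ± 0.42 in rde-4 (limma adjusted p = 0.00707, 0.0113 and 0.00198), and its change in lin-35 unc-13, -1.36, did not pass (adjusted p = 0.123). The call of icl-1 in zfp-1 was lost without zfp-1 replicate 1 (-1.74, limma adjusted p = 0.106).

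The lysozyme gene lys-7 read 7.73, 8.70 and 8.78 in wild type and was dim in every zfp-1 and rde-4 sample. It was at least 10.6-fold lower there, taking 5 as the floor (limma adjusted p = 0.0153 and 0.00376), while its change in alg-1 was 0.21. The zfp-1 call was lost without wild-type replicate 2 or either zfp-1 replicate (limma adjusted p = 0.0589 to 0.141). The ferritin gene ftn-1 read 10.57, 10.62 and 9.18 in wild type, and fell by 2.65 ± 0.48 in zfp-1 and by 2.07 ± 0.43 in alg-1 (limma adjusted p = 0.0138 and 0.0279). The zfp-1 call was lost without wild-type replicate 2 or either zfp-1 replicate (limma adjusted p = 0.0537 to 0.162), and the alg-1 call without wild-type replicate 1 or 2 or any 1 alg-1 replicate (0.0552 to 0.116).

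The mitochondrial superoxide dismutase gene sod-3, a common reporter of DAF-16 activity, was brightest in lin-35 unc-13. It read 7.60 and 6.83 there and 4.87, 5.13 and 3.35 in wild type, and it was dim in every alg-1, zfp-1 and rde-4 sample. Since 1 wild-type sample and the 2 lin-35 unc-13 samples alone reached 5, sod-3 entered the test only through the group in which it was high, so its level is given as a description. With dim values raised to 5, it was 2.17 higher in lin-35 unc-13 than in wild type. It was at least 4.64-fold higher there than in alg-1, zfp-1 and rde-4, taking 5 as the floor. Leaving sod-3 aside, every call in the ligand, regulator, dod and target lists was lost against wild-type replicate 3 alone, except that of dod-3 in rde-4. Some changes were larger with that control: icl-1 (-2.99, -2.90 and -3.28 in alg-1, zfp-1 and rde-4) and dod-20 (-2.80 in rde-4). The fitted lys-7 changes, which rest on dim samples, were larger too (-4.17 in zfp-1 and -4.58 in rde-4). Others were smaller: ins-17 (-1.14) and pqm-1 (-0.95) in rde-4, and dod-22 (1.63 and 3.30) and ftn-1 (-1.13 and -1.70) in alg-1 and zfp-1.

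**Figure D5:**
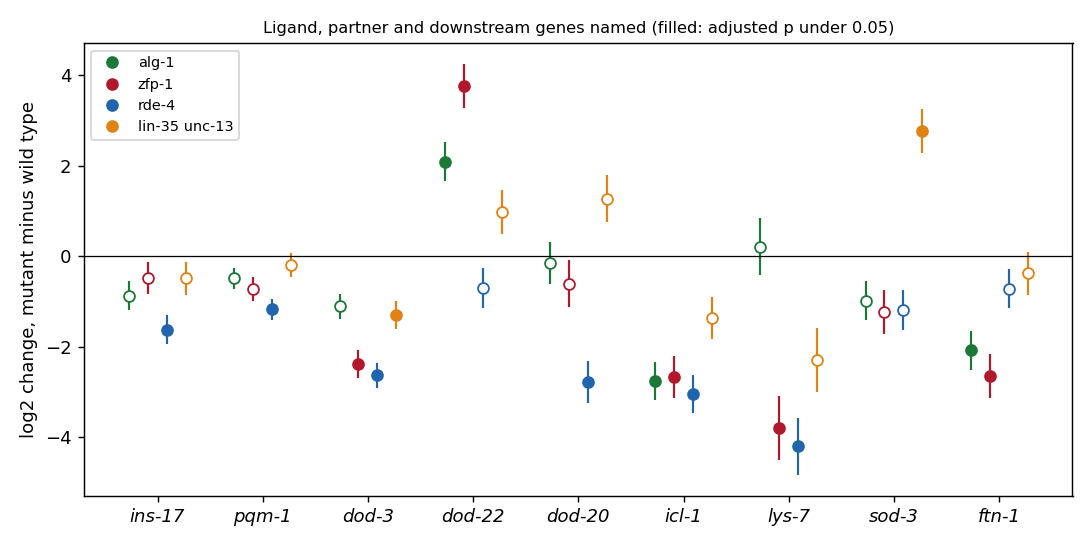
Log2 change against wild type (y axis, limma, bars ± SE) of the named ligand, regulator, dod and target genes (x axis), coloured by mutant; filled points passed at an adjusted p under 0.05. dod-22 is highest in zfp-1 at 3.76 and icl-1 falls by 2.67 to 3.05 in alg-1, zfp-1 and rde-4, while the fitted value of sod-3 is 2.77 in lin-35 unc-13, the group through which it entered the test; the zfp-1 and rde-4 points of lys-7, and the alg-1, zfp-1 and rde-4 points of sod-3, rest on dim samples.

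By the Pearson r of log2 values over the 13 samples, the genes most like pdk-1 were T02H6.1 (0.94), garr-1 (0.94) and obr-3 (0.92). Those most like dod-3 were the cysteine protease gene cpr-4 (0.95), C50F4.8 (0.94) and the kinase gene prk-1 (0.94). These values rest on differences between strains as well as within them.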

How the data were processed

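Larval RNA (5 µg per sample) was labelled and hybridised to Affymetrix arrays. The deposited values are log2 values that the authors made with GCRMA, per the labels; that method corrects background by probe composition and puts arrays on 1 scale. The GCRMA version was not given in the sources used here. Values ran from 1.42 to 17.0 and array medians from 4.48 to 4.86. Arrays have no sequencing depth, and the precision depends on the number of biological samples.

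Of 22625 probe sets, 77 controls were left out. The annotation gave 1 gene for 20766, several for 887, and did not list 895. Of the former, 20701 matched the RefSeq table of assembly WBcel235, used for names and chromosomes. The probe set with the highest mean stood for a gene. Genes at 5 or more in at least 2 of 13 biological samples were tested (8653 genes), so a gene bright only in 1 group could enter through it. The 2 arrays of zfp-1 replicate 2 and of lin-35 unc-13 replicate 2 were averaged.

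One limma model (version 3.58.1, R 4.3.3) covered all 13 samples (lmFit, eBayes, 8 residual and 3.49 prior degrees of freedom, two-sided, Benjamini-Hochberg within each contrast over all genes tested, threshold 0.05). Folds against a group wholly under 5 use 5 as a floor per array value and are lower bounds. The code was tested on simulated data. Members, lists and tests were chosen with earlier results of these data known. Genes named are the 9 members, up to 4 called genes per list, the 5 mutated genes and the 3 genes most like each called member. Alternatives changed normalization, filter, arrays, samples, replicate block, variance prior, probe sets, controls and threshold.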

Additional observations from a re-analysis of the deposited data

How the results depend on the processing

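Counts of members that passed depended on the controls and replicates, and the cause was not tested. In alg-1 the count was 0, and 1 after quantile normalization or with all 15 arrays and the sample as a random block. In zfp-1 it was 2, and 0 against wild-type replicate 3 alone. In rde-4 it was 2, and 1 against that replicate or at a threshold of 0.01. In lin-35 unc-13 it was 1, 2 with the replicate block, and 0 without a filter, against wild-type replicate 3 alone, at 0.01, or with only the 2 groups in the fit. The F test called 2, and 1 against wild-type replicate 3 alone. Direct comparisons called 2, against 1 without a filter, 5 with the replicate block, 1 with alg-1 replicates 1 and 3 as 1 sample, 0 at 0.01 and 1 with only the 2 groups. Tests of single probe sets called 7, against 4 without a filter, 12 with the replicate block, 0 against wild-type replicate 3 alone and 3 at 0.01. Leaving out 1 sample at a time gave 0 to 1 (alg-1), 1 to 2 (zfp-1), 1 to 2 (rde-4), 0 to 2 (lin-35 unc-13), 0 to 4 (direct) and 3 to 10 (probe sets). Where this left 1 sample in a strain, that sample was assumed to vary like the other groups.

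Replicate numbers were not taken to pair samples. Deviations of same-numbered samples correlated at -0.27 to 0.38, with 14 of 23 pairs over 0.1 against 10 of 44 pairs of other numbers, and 5 of 13 samples correlated best with their own number. In zfp-1 and lin-35 unc-13, the deviations of the 2 samples mirror each other, so these pairs are not independent. For pdk-1 and daf-16, every replicate 1 lay above its group mean and every replicate 2 below it. With that block, pdk-1 in lin-35 unc-13 (1.28, limma adjusted p = 0.013) and daf-16 in lin-35 unc-13 (0.99, 0.044) and zfp-1 (1.11, 0.0276) passed, and dod-3 in lin-35 unc-13 did not (0.0557).

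Only changes that did not pass turned sign. With medians subtracted, age-1 and sgk-1 in rde-4 were 0.0459 and 0.0352, and daf-18 in zfp-1 was 0.10 (0.0578 with the replicate block). With all probe sets fitted, the probe set with the smallest p was taken for each gene and comparison. In the cases that turned sign this was the second, dimmer probe set. It gave -0.21 for age-1 in lin-35 unc-13 and -0.13 for akt-2 in rde-4. For daf-18 it gave 0.31 in alg-1, 0.41 in zfp-1 and 0.66 in lin-35 unc-13. After quantile normalization akt-2 in rde-4 was -0.0286 and daf-16 in alg-1 -0.0509. Against wild-type replicate 3 alone, age-1 in lin-35 unc-13 was -0.18, akt-1 was 0.12 in alg-1, 0.0378 in zfp-1 and 0.0565 in rde-4, akt-2 in zfp-1 was 2e-04 and daf-16 in alg-1 -0.0533. With alg-1 replicates 1 and 3 as 1 sample, daf-16 in alg-1 was -0.20. Leaving out 1 sample at a time, age-1 ran from -0.21 to 0.0784 in rde-4 and -0.37 to 0.0124 in zfp-1, akt-2 from -0.0441 to 0.29 in lin-35 unc-13 and -0.16 to 0.19 in rde-4, and daf-16 from -0.25 to 0.43 in alg-1. Likewise daf-18 ran from -0.21 to 0.14 in alg-1 and -0.18 to 0.16 in zfp-1, and sgk-1 from -0.041 to 0.13 in alg-1, -0.23 to 0.0859 in rde-4 and -0.35 to 0.0641 in zfp-1. The dim values of daf-2 allow no statement on its level.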
